A study of Caenorhabditis elegans with 2 samples.

Results

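The histone genes of Caenorhabditis elegans were described for occupancy of their promoters by FOS-1, a basic leucine zipper transcription factor of the Fos family. The members are the protein-coding genes that Ensembl names his- followed by a number, and they are 72 of the 19973 protein-coding genes on the nuclear chromosomes. They comprise 17 H2A, 16 H2B, 15 H3 and 16 H4 genes, 5 genes of the H3.3 type, the linker histone H1 gene his-24, and the short histone-domain genes his-39 and his-73. Ensembl gives these genes only 50 distinct names, with 14 names used for more than 1 gene, so RefSeq symbols matched by WormBase identifier are used here.

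FOS-1 binding was mapped by chromatin immunoprecipitation and sequencing (ChIP-seq) in strain OP304, genotype unc-119(ed3) III; wgIs304, whose integrated transgene supplies FOS-1 fused to eGFP. The chromatin came from whole L2 larvae, with males and females pooled, so occupancy is a mean over tissues and the transgenic protein is what was measured. The labels give 2 biological replicates of 1 group, from separate biosamples, and no untreated or other control samples were analysed here. There is therefore no contrast between conditions, and the values below compare histone genes with other genes, and histone genes among themselves.

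Histones are the proteins around which DNA is wound. Pairs of H2A with H2B and of H3 with H4 build the nucleosome core, and H1 binds the linker DNA between nucleosomes. The replication-dependent core genes are made in bulk when DNA is copied, lie in clusters of near-identical copies, and often stand head to head so that a pair of genes shares the DNA between their starts. H3.3 replaces H3 outside S phase and its genes are not part of these clusters. L2 larvae have dividing somatic and germline cells, which need new histones at each round of replication.

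Promoter windows covered 1000 bp upstream and 250 bp downstream of each start of a protein-coding transcript. A gene was counted when the summit of a peak lay in its window. The main peak list is thresholded by the irreproducible discovery rate (IDR), which ranks calls by how well replicates agree, and it holds 7446 peaks. The relaxed lists, which include weak calls, hold 28259 calls for both replicates pooled, 29339 for replicate 1 and 28938 for replicate 2. The signal of a call is the authors' own value, is not normalized between lists, and ran from 33.9 to 702 in the IDR list with a median of 64.5. The depth of the libraries is unknown, and a gene with no call may lie under the threshold of the caller.

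FOS-1 peaks stood at the promoters of 16 histone genes of 72 (22.2%), against 4665 of 19901 other protein-coding genes (23.4%). The share among histone genes was thus near the background. Because neighbours share promoters, these 16 genes rest on 10 distinct peaks. The pooled relaxed list reached 26 histone genes (36.1%), against 46.6% of other genes. A call in replicate 1 reached 26 histone genes (36.1%), against 47.4% of other genes, and one in replicate 2 reached 28 (38.9%), against 47.7%. No list had any call in the windows of 39 histone genes (54.2%), against 42.6% of other genes. The remaining 17 histone genes had a weak call but no IDR summit, and the same count for other genes is not given here.

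**Figure D1:**
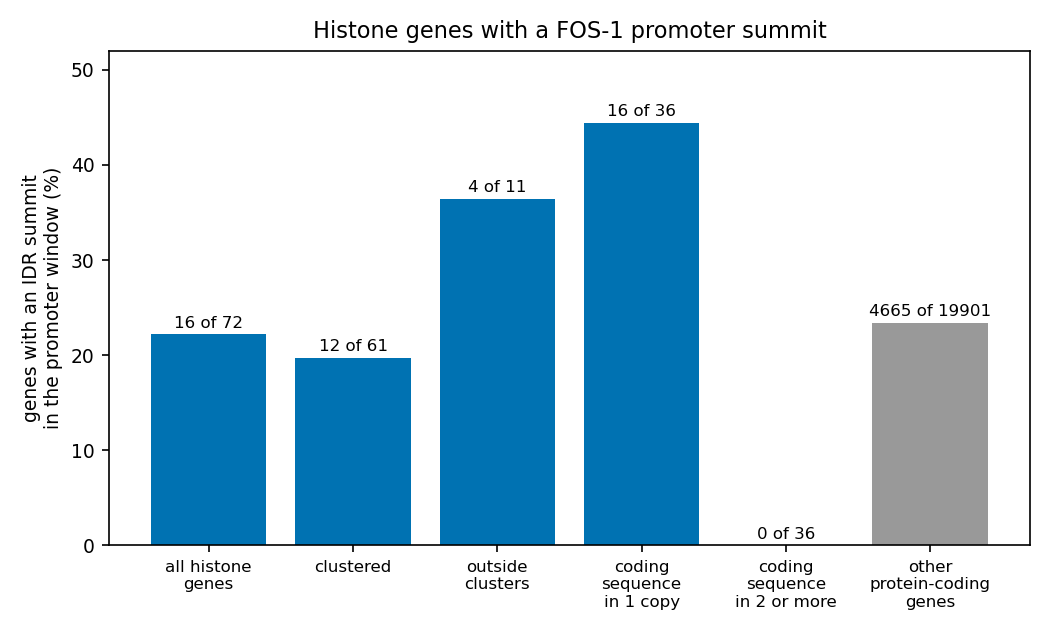
Bars give the percentage of genes with an IDR summit in the promoter window, with the counts above each bar; blue bars are histone genes or subsets of them and the grey bar is the other protein-coding genes. Genes with a coding sequence of their own reach 44.4%, genes with an identical copy elsewhere have none, and the whole family stands at 22.2%, beside 23.4% for other genes.

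By protein, summits fell at 4 of 17 H2A genes, 3 of 16 H2B genes, 3 of 15 H3 genes and 4 of 16 H4 genes. Each of these shares was near the 23.4% of other protein-coding genes, so the counts do not set the classes apart. Most of these genes share a peak with a neighbour of another class, and such a peak was counted for both. The spread over the classes thus follows in part from this counting. The H3 count includes his-42, whose summit lay 653 bp upstream, near a small nuclear RNA gene. A summit also stood at 1 of the 5 H3.3 genes and at the H1 gene, and at neither short histone-domain gene.

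A cluster was defined as a run of at least 3 histone genes with gaps of at most 5 kb, which gave 11 clusters with 61 genes. Clustered genes had an IDR summit at 12 of 61 (19.7%), from 7 peaks, against 4 of 11 genes outside clusters (36.4%), from 3 peaks. Peak signals overlapped between the groups, from 35.0 to 305.9 with a median of 62.4 in clusters and from 37.0 to 149.3 with a median of 71.8 outside. The windows also differed in how much of their sequence is unique in the genome. The share of window positions whose 36 bases occur at a single place had a median of 15.2% in clusters and 92.2% outside. Among windows at least 90% unique the order of the groups turned. A summit stood at 3 of 3 clustered genes, from 2 peaks of the same cluster, against 4 of 7 outside, from 3 peaks. Among windows at least 50% unique the order also turned. Here 12 of 19 clustered genes (63.2%) had a summit, from 7 peaks, against 4 of 11 outside (36.4%), from 3 peaks. Since a shared peak counts for both partners, the turned order rests on few peaks. Both divisions were chosen after the values were seen.

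Clusters differed from each other in whether they had peaks at all. The cluster of his-61, his-62, his-60 and his-59 on chromosome IV had an IDR summit at 4 of 4 genes, and the cluster of his-35, his-41 and his-37 on chromosome V at 3 of 3. The cluster of his-4, his-3, his-2 and his-1 on chromosome V had one at 2 of 4, and that of his-29 to his-34 on chromosome IV at 2 of 6. The largest cluster, his-16 to his-42 on chromosome II, had one at 1 of 13. In the other 6 clusters no gene had an IDR summit.

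Median uniqueness was 86.0% in the windows of the first of these clusters, 98.6% in the second and 71.02% in the third. In that of his-29 to his-34 it was 11.3%, and the genes with the summit there, his-31 and his-32, have windows 85.1% and 86.9% unique. In the chromosome II cluster it was 0%. The clusters on chromosome V from his-50 to his-53 and from his-28 to his-18 also had a median of 0%, and the cluster of his-8 to his-39 had one of 55.0% with pooled calls at 4 of its 5 genes. The clusters of his-47 to his-45, of his-55 to his-57 and of his-66 to his-64, with medians of 14.9%, 12.2% and 36.4%, also had no IDR summit. The median of a cluster thus did not order the clusters by their summits.

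**Figure D2:**
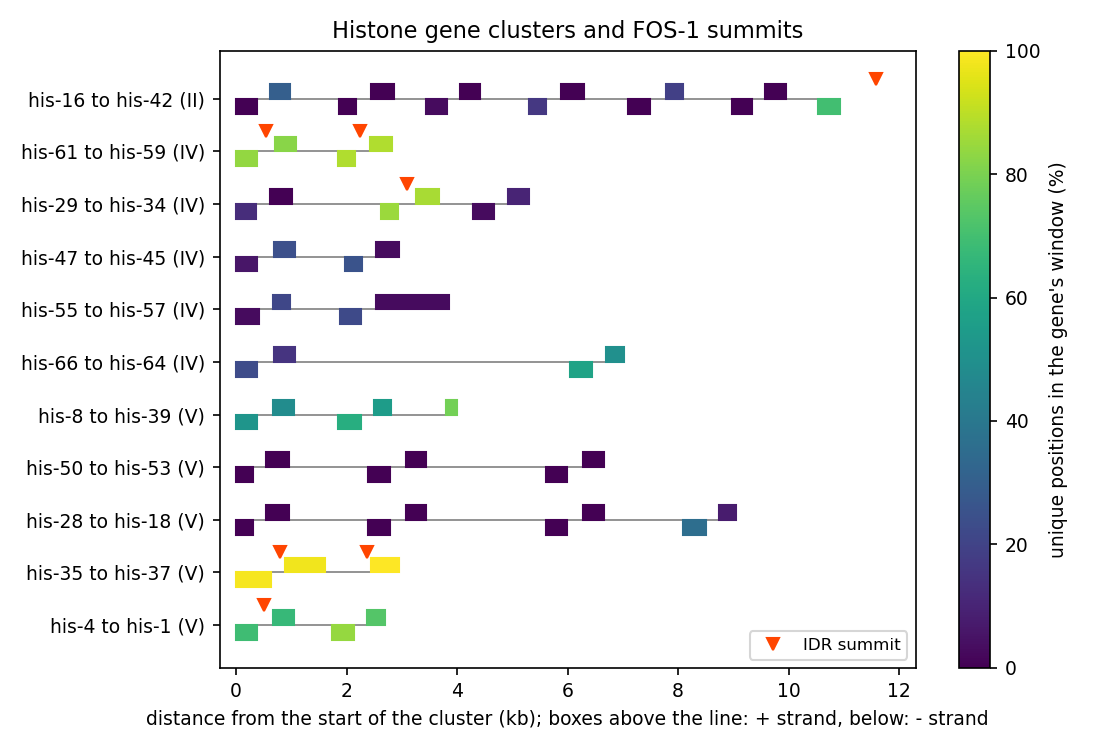
Each line is 1 of the 11 clusters, with distance from its first gene in kb on the x axis; boxes are genes, above the line for the + strand and below it for the - strand, coloured by the percentage of unique positions in the gene's window, and triangles are IDR summits. In the chromosome II cluster the only summit lies beyond its last gene, his-42, and in the cluster of his-29 to his-34 the only summit lies between the pair of light boxes. The cluster of his-8 to his-39 has boxes of middle tone and no IDR summit.

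Identical copies divided the genes more sharply than clusters did. The 72 genes have 50 distinct coding sequences, and 36 genes share theirs with at least 1 other. Among the 36 genes with a coding sequence of their own, 16 had an IDR summit (44.4%), 25 had a pooled call and 6 had no call in any list. Among the 36 genes with an identical copy, none had an IDR summit, 1 had a pooled call and 33 had no call in any list. The windows of the copied genes had at most 29.9% unique positions and a median of 0%, whereas genes without a copy had a median of 83.9%.

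Uniqueness of the window was therefore read for all genes. Over the whole genome 92.1% of positions were unique, and the median window of a protein-coding gene was 100% unique, whereas the median histone window was 23.6% unique. Histone windows at least 50% unique had an IDR summit at 16 of 30 genes (53.3%), against 24% of other genes with such windows (4653 of 19384). These 16 histone genes rest on 10 distinct peaks, and the 4653 other genes on 4206. Part of the gap between the shares thus follows from counting a shared peak for both partners. Histone windows under 50% unique had one at 0 of 42 genes, against 2.32% of other genes with such windows, which are 12 of 517. Few peaks were thus called in repeated windows of any kind of gene, and in 20 histone windows not a single position was unique. The division at 50% was chosen after the values were seen. No source used here gives the read length or the treatment of reads that match several places, so absence of a call at a copied gene cannot be told apart from absence of countable reads.

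**Figure D3:**
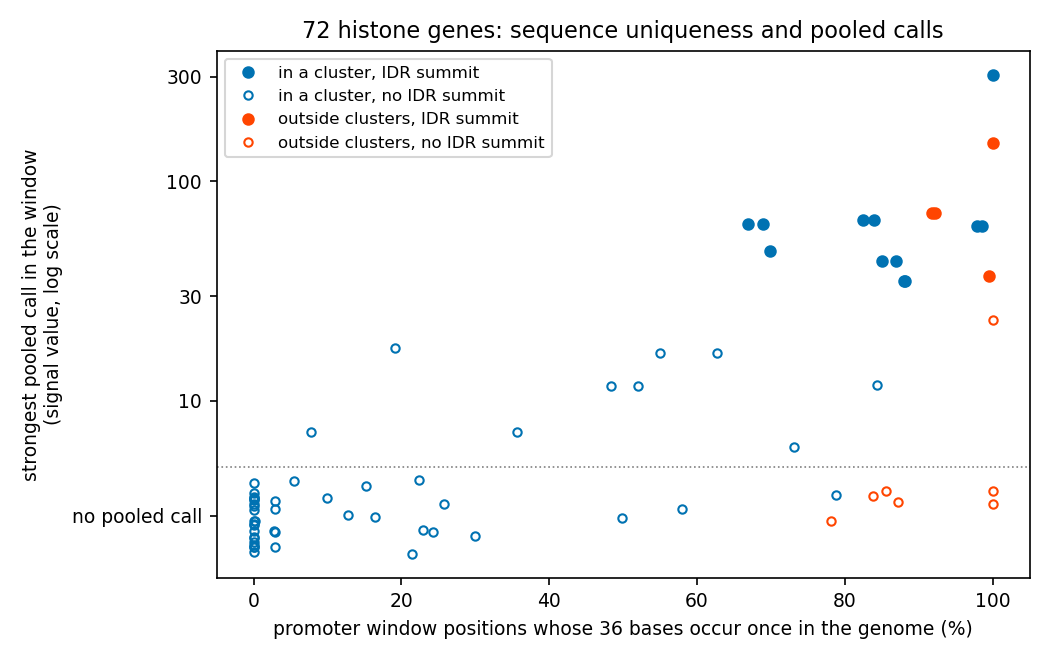
Each point is 1 of the 72 histone genes, with the percentage of unique positions in its window on the x axis and the signal of its strongest pooled call on a log y axis; points under the dotted line have no pooled call and are spread vertically for visibility. Filled points have an IDR summit and all lie right of 66%, and no point at 0% has a pooled call.

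The DNA between H2B and H2A starts is set out for 3 regions of the same length that had different outcomes, chosen after their values were seen. They are shown 5′ to 3′ from the H2B side on WBcel235 (ce11), with capitals at bases that differ from the his-51/his-52 region at the same position. The his-4/his-3 region is chrV:16040516-16040807 on the + strand, his-8/his-7 is chrV:8533087-8533378 on the + strand, and his-51/his-52 is chrV:8850172-8850463 on the - strand.
his-4/his-3: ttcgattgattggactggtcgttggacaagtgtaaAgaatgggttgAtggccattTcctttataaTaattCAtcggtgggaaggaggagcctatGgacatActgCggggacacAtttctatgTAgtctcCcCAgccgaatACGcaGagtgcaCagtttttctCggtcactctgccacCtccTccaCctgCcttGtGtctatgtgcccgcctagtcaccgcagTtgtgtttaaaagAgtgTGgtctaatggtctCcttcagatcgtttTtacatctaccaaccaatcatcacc
his-8/his-7: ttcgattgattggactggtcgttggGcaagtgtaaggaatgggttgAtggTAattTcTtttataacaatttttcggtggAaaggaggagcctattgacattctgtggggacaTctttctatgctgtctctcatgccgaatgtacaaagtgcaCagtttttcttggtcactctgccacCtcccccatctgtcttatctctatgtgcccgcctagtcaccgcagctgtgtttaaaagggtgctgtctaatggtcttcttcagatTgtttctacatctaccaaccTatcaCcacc
his-51/his-52: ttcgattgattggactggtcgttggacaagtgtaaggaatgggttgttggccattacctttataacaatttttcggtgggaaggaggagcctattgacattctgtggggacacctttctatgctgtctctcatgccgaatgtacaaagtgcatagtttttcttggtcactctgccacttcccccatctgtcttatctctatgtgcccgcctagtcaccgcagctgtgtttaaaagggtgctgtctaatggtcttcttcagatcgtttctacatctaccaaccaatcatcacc

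Each region has 292 bases. The his-51/his-52 sequence occurs at 4 places, none of its positions is unique, and no list had a call between the starts. The his-8/his-7 region is 95.5% identical to it, with 13 differing bases and an identical run of up to 84 bases, and is 80.5% unique. It had relaxed calls only, of signal 11.7 in the pooled list, 6.82 in replicate 1 and 4.39 in replicate 2. The his-4/his-3 region is 88.7% identical to his-51/his-52, with 33 differing bases and no identical run over 35 bases, and is 91.8% unique. It had an IDR peak of signal 63.7. The his-8/his-7 sequence also occurs at a single place but had no IDR peak. The letters GTGTCCC, described below, are in the his-4/his-3 and his-51/his-52 regions and not in his-8/his-7. What sets the outcomes apart was not tested. All 3 regions hold the promoters of an H2B and an H2A gene.

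**Figure D4:**
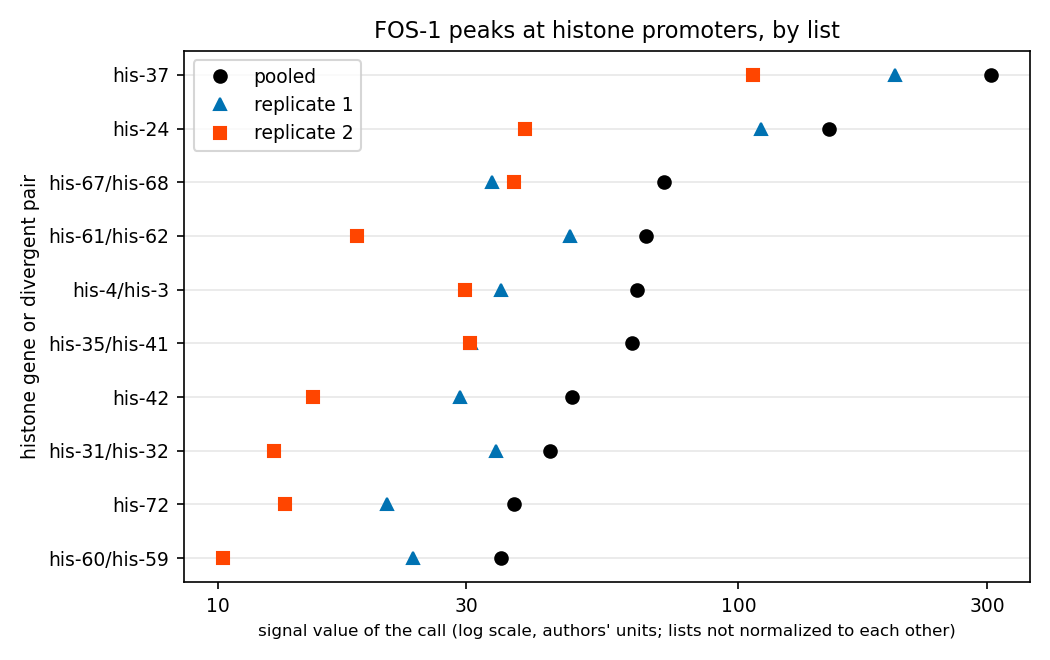
The 10 IDR peaks at histone promoters, ordered by pooled signal, with the signal of the call in the pooled list (circles), replicate 1 (triangles) and replicate 2 (squares) on a log axis. The his-37 peak is highest in every list, at 305.9, 199.5 and 106.7, and the his-60/his-59 peak is lowest in the pooled list and in replicate 2, at 35.0 and 10.2.

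The strongest peak belonged to an H4 gene. The peak at his-37, chrV:9546894-9547148, had a signal of 305.9 in the pooled list, 199.5 in replicate 1 and 106.7 in replicate 2. It ranked 28 of 7446 IDR peaks, 36 in replicate 1 and 30 in replicate 2, so its place was alike in all lists. The summit lay 83 bp upstream of the start of his-37, and the peak was 100% unique.

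The second strongest peak belonged to his-24, the H1 gene. The peak, chrX:14489959-14490112, had a signal of 149.3 in the pooled list, 110.2 in replicate 1 and 38.9 in replicate 2. It ranked 545 in the IDR list and 1119 in replicate 2, and its summit lay 56 bp upstream of the start. The noncoding RNA gene M163.19 also lies within 250 bp of that summit, so the peak cannot be assigned to his-24 alone.

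The his-37 and his-24 peaks share a stretch of 20 bases, and it is shown because both summits fall inside it. The bases from the start of each peak to the last one before the gene start are given 5′ to 3′ on the + strand of WBcel235, at chrV:9546894-9547104 and chrX:14489959-14490093, with the shared stretch in capitals.
his-37: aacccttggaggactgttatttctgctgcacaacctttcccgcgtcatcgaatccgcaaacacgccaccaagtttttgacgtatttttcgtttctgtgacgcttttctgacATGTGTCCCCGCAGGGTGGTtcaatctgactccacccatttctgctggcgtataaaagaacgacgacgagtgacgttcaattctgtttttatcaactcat
his-24: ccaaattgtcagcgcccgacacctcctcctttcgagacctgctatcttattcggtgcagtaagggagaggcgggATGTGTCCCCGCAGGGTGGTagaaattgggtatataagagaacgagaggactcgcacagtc

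The stretch ends 81 bp before the start of his-37 and 42 bp before the start of his-24. It occurs at 5 places in the genome. Of the other 3 places, the one nearest to max-2 lay in a pooled call of signal 23.0, and those nearest to K07C5.13 and Y71A12B.10 lay in no pooled call. Within 100 bp of these places 33.3%, 42.8% and 74.1% of positions were unique. The stretch was thus not found with a peak wherever it occurred.

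Most histone peaks hold the core of that stretch, GTGTCCC, which was chosen after the peaks had been seen. On either strand it was found in 7 of 10 histone IDR peaks, against 162 of all 7446 IDR peaks (2.18%). The peaks without it were those at his-35/his-41, his-42 and his-72. Counted along the + strand, its middle was -12 bp from the summit at his-37, 0 bp at his-24, -18 bp at his-4/his-3, 25 bp at his-60/his-59 and 48 bp at his-31/his-32. At his-61/his-62 there were matches at -65 and 69 bp, and at his-67/his-68 at -123, -12 and 25 bp. The letters thus lay at the summit in some peaks and well to the side in others. In promoters, taken as 250 bases before to 50 after the start, it was found in 51 of 72 histone genes (70.8%), against 303 of all 19973 genes (1.52%). The 72 promoters have 51 distinct sequences, and 30 of these hold it (58.8%).

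Of all histone genes, 12 of 51 with GTGTCCC in the promoter had an IDR summit (23.5%), and 4 of 21 without it did (19%). Among histone windows at least 50% unique, a division chosen after the values were seen, 12 of 15 genes with it had a summit (80.0%), and 4 of 15 without it did (26.7%). Among other genes, 57 of 252 with it had a summit (22.6%), and 23.5% of those without it did. Since the letters were picked from these peaks, the histone counts are a description only. Histone promoters also share longer sequence and peaks with each other, so the genes are not independent.

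Divergent pairs were taken as adjacent histone genes with starts at most 1500 bp apart, and 31 were found. They comprise 16 H2A and H2B pairs, 14 H3 and H4 pairs, and the H4 and H2A pair his-67/his-68. The starts were separated by 227 to 368 bp, with a median of 258 bp. An IDR summit lay between the starts in 6 of 31 regions, a pooled summit in 8, a replicate 1 summit in 9 and a replicate 2 summit in 7. No count for divergent pairs of other genes is given here, so these numbers stand without a background.

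Here too the calls fell where the sequence occurs at a single place. The 17 regions whose whole sequence occurs more than once had no call between the starts in any list. Of the 14 others, 6 had an IDR summit and 8 a pooled one. Among the 8 regions at least 90% unique, 6 had an IDR summit, and the exceptions were his-2/his-1 at 94.9% and his-38/his-40 at 100%. Both exceptions lack GTGTCCC, which 24 of the 31 regions hold, among them 5 of the 6 with an IDR summit. The letters were picked from these peaks, so their absence from the exceptions is a description only.

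H2A and H2B pairs gave 3 of these peaks. The his-61/his-62 peak, chrIV:7486209-7486552, had a signal of 66.6 in the pooled list, 47.5 in replicate 1 and 18.5 in replicate 2. At his-4/his-3, chrV:16040471-16040814, the signal was 63.7 in the pooled list, 35.0 in replicate 1 and 29.8 in replicate 2, and the noncoding RNA gene T10C6.19 lies within 250 bp of the summit. At his-35/his-41, chrV:9545275-9545618, it was 62.4 in the pooled list, 30.6 in replicate 1 and 30.4 in replicate 2, with the summit also in the window of C50F4.6. The 3 pooled signals were within 5 units of each other, near the median of the IDR list.

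H3 and H4 pairs gave 2 peaks, both weaker. The his-31/his-32 peak, chrIV:8333966-8334309, had a signal of 43.5 in the pooled list, 34.2 in replicate 1 and 12.8 in replicate 2. The his-60/his-59 peak, chrIV:7487906-7488249, had a signal of 35.0 in the pooled list, 23.7 in replicate 1 and 10.2 in replicate 2, and ranked 7264 of 7446. H2A and H2B pairs ran higher than H3 and H4 pairs in the pooled list and in replicate 2, where 18.5 to 30.4 stood against 10.2 to 12.8. In replicate 1 the groups overlapped, at 30.6 to 47.5 against 23.7 to 34.2. With 3 peaks against 2, no test was made.

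The his-61/his-62 and his-60/his-59 peaks lie in the same cluster, and both regions are single in the genome. A pooled signal of 66.6 at the H2A and H2B pair thus stood beside 35.0 at the H3 and H4 pair less than 2 kb away. The his-67/his-68 peak of the H4 and H2A pair, chrI:9988836-9989179, had a signal of 71.8 in the pooled list, 33.7 in replicate 1 and 37.0 in replicate 2. Its summit also lies in the window of alg-5, an Argonaute gene, though his-68 has the nearest start.

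**Figure D5:**
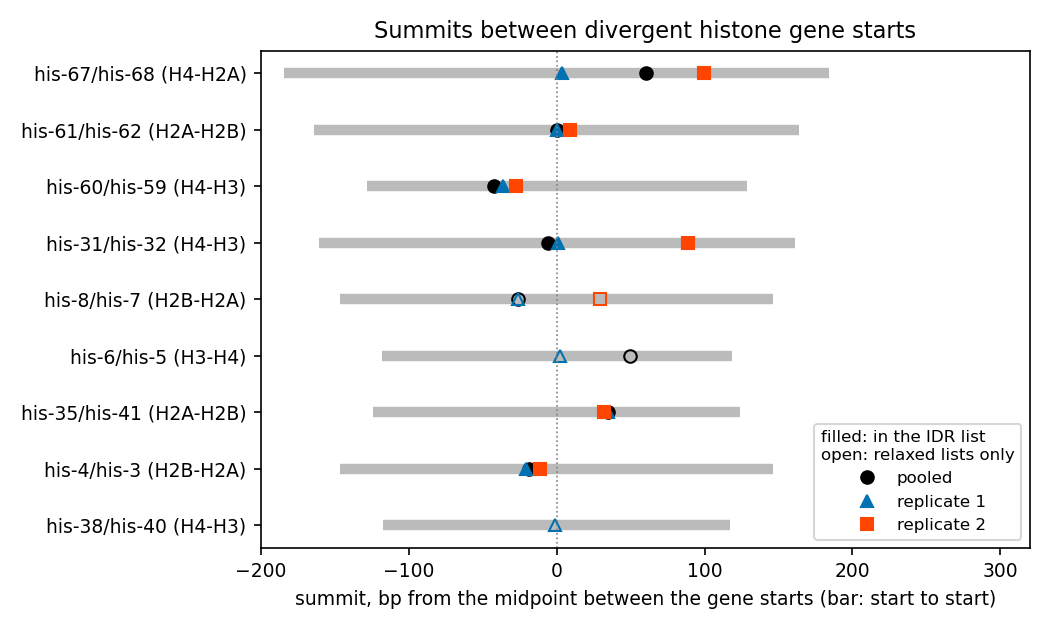
Grey bars span the DNA between the starts of the 9 divergent pairs with a call in any list, aligned at the midpoint, with the x axis in bp; symbols are summits in the pooled list (circles), replicate 1 (triangles) and replicate 2 (squares), filled where the region has an IDR summit. IDR summits lie from -42.5 to 60.5 bp of the midpoint, well inside the bars.

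IDR summits lay near the middle of the shared DNA, but only summits between the starts were taken, which limits how far off they can lie. The 6 IDR summits were -42.5 to 60.5 bp from the midpoint, and that of his-61/his-62 was exactly at it. Replicate summits were 3 to 9 bp apart in 4 of these peaks, 88 bp apart at his-31/his-32 and 96 bp apart at his-67/his-68. In replicate 2 the summits of his-31/his-32 and his-67/his-68 were 89 and 99.5 bp from the midpoint. A summit at the midpoint cannot be assigned to either partner, so each such peak is counted for both genes.

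An H3 and H4 region with a peak and one without are set side by side, his-31/his-32 (central 300 of its 321 bases, chrIV:8333994-8334293) and his-38/his-40 (chrX:7309876-7310109). Both are on the + strand of WBcel235 from the H4 side, are 100% unique, and have GATA sites and GAGAGAG on either strand in capitals.
his-31/his-32: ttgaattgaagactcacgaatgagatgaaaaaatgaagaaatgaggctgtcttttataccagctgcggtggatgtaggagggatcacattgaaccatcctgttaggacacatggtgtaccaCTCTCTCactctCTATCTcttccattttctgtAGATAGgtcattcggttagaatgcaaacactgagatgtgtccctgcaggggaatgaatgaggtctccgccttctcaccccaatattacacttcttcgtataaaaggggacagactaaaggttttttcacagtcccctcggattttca
his-38/his-40: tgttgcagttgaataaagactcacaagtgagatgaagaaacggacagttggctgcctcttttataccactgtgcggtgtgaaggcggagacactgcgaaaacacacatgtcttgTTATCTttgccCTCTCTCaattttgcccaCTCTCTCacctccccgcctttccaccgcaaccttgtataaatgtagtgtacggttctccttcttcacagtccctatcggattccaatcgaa

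Both regions thus hold GATA and GAGAGAG matches. GTGTCCC, which was picked from peaks like that of his-31/his-32, is in that region and not in his-38/his-40. Other regions go the other way, since his-35/his-41 has a peak without these letters and his-6/his-5, 86.0% unique, holds them without an IDR summit. The his-38/his-40 region had a single weak call, of signal 4.14 in replicate 1, and none in the pooled list or in replicate 2.

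The peak assigned to the H3 gene his-42, chrII:13829178-13829521, was unlike the others in place. Its signal was 48.0 in the pooled list, 29.2 in replicate 1 and 15.2 in replicate 2. The summit lay 653 bp upstream of his-42, and it was within 250 bp of the small nuclear RNA gene C47F8.9 and the noncoding RNA gene R05D7.8. The peak itself was 39.2% unique, the lowest of the 10. Whether it belongs to his-42 or to the small nuclear RNA gene cannot be read from these lists, and with a window of 500 bp upstream it is lost and 15 histone genes have a summit.

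The H3.3 genes differed among themselves although their windows are 87.1% to 100% unique. The his-72 peak, chrIII:12368982-12369325, had a signal of 37.0 in the pooled list, 21.1 in replicate 1 and 13.4 in replicate 2, with its summit 104 bp upstream. It ranked 6912 of 7446, so it was one of the weak IDR peaks. The gene his-71 had a pooled call of 23.3 at 613 bp upstream, with 17.7 in replicate 1 and 3.51 in replicate 2, which was the strongest pooled call at a histone gene without an IDR summit. At his-69, his-70 and his-74 no list had a call.

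Some clustered genes without an IDR summit had weak calls. Of 61 clustered genes, 35 had no call in any list (57.4%), against 42.6% of other genes. Of the 19 with windows at least 50% unique, all had a call in replicate 2, against 48.8% of other genes with such windows. Partners of a pair often share such a call, and it was counted for both. In the chromosome II cluster the strongest weak call was at the H4 gene his-26. It had 17.5 in the pooled list and 17.6 in replicate 2 at 969 to 987 bp upstream, and none in replicate 1. The H3 and H4 pair his-6/his-5 had 16.5 in the pooled list and 10.7 in replicate 1, and the nearest replicate 2 call of 8.25 lay outside the DNA between the starts. The H3 gene his-2 had 11.8 in the pooled list and 11.4 in replicate 1, at 748 and 725 bp upstream, against 2.82 in replicate 2 at 300 bp upstream. At his-17/his-18 the pooled list alone had a call, of 7.21.

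In the clusters of his-55 to his-57 and of his-66 to his-64 the strongest calls were 4.65 at his-58 in replicate 2 and 3.81 at his-65 in replicate 1. The clusters of his-47 to his-45 and of his-50 to his-53 had no call in any list. Calls at these genes were mostly in 1 replicate or at different places in the replicates, and 7 histone genes had calls in replicate lists only.

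All 10 histone peaks had a call in both replicate lists, as did 7379 of all 7446 IDR peaks, so this does not set them apart. When each replicate list was limited to its 7446 calls of highest signal, 8 of the 10 stayed in both, as did 5920 of all 7446 IDR peaks. The ratio of replicate 1 to replicate 2 signal had a median of 1.89 at the histone peaks, with a range of 0.91 to 2.84, and of 2.19 over 7379 IDR peaks with both calls. Lists are not normalized, so the level of this ratio has no meaning of its own and only its spread does. The lowest ratios were 0.91 at his-67/his-68, 1.01 at his-35/his-41 and 1.18 at his-4/his-3, and 3.65% of IDR peaks were under 1.1. At his-67/his-68 the rank was accordingly 5323 in replicate 1 and 1254 in replicate 2.

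Known binding sites of the Fos family were at none of the 10 histone summits, but they are rare at IDR summits in general. Within 50 bp of a summit the AP-1 sites TGACTCA and TGAGTCA, to which Fos and Jun dimers bind, were at 0 of 10 histone summits, against 3.55% of all IDR summits. The CRE site TGACGTCA was at 0 of 10, against 0.819%. With shares this low and only 10 summits, these absences do not set the histone peaks apart from other IDR peaks. The letters are equally absent from the promoters of the 72 histone genes, against 3.61% of all promoters for AP-1 and 1.51% for CRE. A missing match says only that these letters are not in the window.

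Other patterns were counted on both strands. The GATA sites, which are AGATAA or AGATAG or TGATAA or TGATAG, were at 4 of 10 histone summits, against 52.9% of all IDR summits, and in 63.9% of histone promoters, against 54.5% of all promoters. The extended site TGATAAG, which contains TGATAA, was at 0 of 10 histone summits, against 22.8%, and in none of the 72 promoters, against 9.20% of all promoters. GAGAGAG was at 2 of 10 summits against 9.83%, and in 13.9% of histone promoters (19.6% of distinct ones) against 6.79% of all promoters. The E-box CACGTG was at 1 of 10 against 3.98%, and GACGCAGA was at 1 of 10 against 5.33%. The TATA letters TATAAA were at 1 of 10 summits against 6.94%, and in 65.3% of histone promoters against 38.0% of all promoters. Of the letters searched, 4 were in a larger share of histone promoters than of all promoters, namely GTGTCCC and the patterns of the GATA site, the GAGA repeat and the TATA letters. The others were in a smaller share of the 72 promoters, though GACGCAGA was in 3.92% of distinct histone promoters, against 3.0% of all promoters.

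Genes that act with histones were counted from a list of 38, of which 11 had an IDR summit (28.9%) and 28 a pooled call (73.7%), against 23.4% and 46.6% of protein-coding genes other than histones. Among variants, htz-1, which encodes H2A.Z, had a peak of signal 139.0 and hcp-3, which encodes the centromeric H3, one of 38.1, while cpar-1 had no pooled call. None of the 7 other linker histone genes, hil-1 to hil-7, had an IDR summit and 4 had a pooled call, beside the strong peak at his-24. Of 12 histone chaperone genes, lin-53 at 143.6 and chaf-2 at 52.8 had an IDR summit. The gene cdl-1, which encodes the protein that binds the stem-loop at the end of histone messenger RNA, had one at 92.0, and cpsf-3 had no pooled call.

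Of 14 genes of S phase, 6 had an IDR summit (42.9%) and 13 a pooled call (92.9%), beside the same 23.4% and 46.6%. The signals were 125.4 at pcn-1, the sliding clamp of DNA polymerase, 98.5 at cye-1, which encodes cyclin E, and 96.1 at lin-35, which encodes the Retinoblastoma protein. They were 78.5 at efl-1, an E2F factor, 69.8 at mcm-2 and 59.9 at mcm-4, subunits of the replicative helicase. Except for his-37 and his-24, the peaks at histone promoters, at 35.0 to 71.8, were in the lower part of the range of these S-phase peaks or below it. The list was chosen with earlier results of these data known and is given as a description.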

How the data were processed

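ChIP-seq peak lists on ce11 (WBcel235) were used, and those on ce10 were not used here. Per the deposited manifests, a relaxed list was made from each replicate's alignment and a control, a pooled relaxed list from both, and the optimal IDR list from these. The signal value and the position of the summit of each call are the authors', as deposited. No source used here names the aligner or the caller with a version, and the control library was not analysed here.

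Gene models were those of Ensembl release 115, and symbols and sequence those of RefSeq on WBcel235. All 72 genes matched a RefSeq symbol, and 65 have an annotated start equal to the start codon. Summits were assigned to windows, divergent pairs and clusters with Python 3.11.15 and NumPy 2.4.6. Uniqueness is the percentage of window positions whose 36 bases occur at a single place in the genome on both strands together. Uniqueness and the assignment of summits to windows were checked on simulated data, and the assignment to divergent pairs and clusters was not. No test was made, since the design has 1 group. The members and lists were chosen with earlier results of these data known.

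Named are all histone genes with an IDR summit, those with the strongest weak call of each cluster, the H1 and H3.3 genes, and the listed genes of the pathway with an IDR summit. The his-8/his-7, his-51/his-52 and his-38/his-40 regions and the places of the shared stretch were added after their values were seen. Alternatives were other thresholds, windows, starts, overlaps, cluster rules, lengths of sequence and each replicate alone.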

Additional observations from a re-analysis of the deposited data

How the results depend on the processing

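Of 54 counts under alternative settings, 45 were within 1.5 times of the reported count. The threshold moved most of the others. With the upper 50% of IDR peaks by signal, 6 histone genes had a summit, 3 of them clustered, and 2 divergent pairs did. With all pooled relaxed calls the counts were 26 genes, 21 clustered genes and 10 divergent pairs, where a pair counts if 1 summit lies in the windows of both partners. With clusters of at least 2 genes, 5 genes remained outside and 2 of them had a summit. With only windows at least 90% unique, an alternative chosen after seeing the data, 7 genes of 10 had a summit, against 25.3% of other genes. They were 3 of 3 clustered genes, from 2 peaks of the same cluster, and 4 of 7 outside clusters, from 3 peaks. The change in these counts follows from fewer or more calls, genes or windows entering them. With the strongest calls of 1 replicate in place of the IDR list, 13 to 15 histone genes had a summit, 10 to 11 clustered and 3 to 4 outside clusters, and 5 divergent pairs in both cases. Windows read with 50 or 100 bases left 40 or 39 histone windows under 50% unique, and again none of them had an IDR summit. Depth is unknown, so weak calls cannot be weighed by it. No paired analysis was possible because there is 1 group and no result comes from a test.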
